A study of Drosophila melanogaster with 31 samples.

Results

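The X chromosome of Drosophila melanogaster carried 945 of the 7718 H3K9me3 peaks called in ovaries of 2 genotypes. These were all broad peaks placed on X in the coordinates of genome build dm3, without those of the separate assembly of X heterochromatin (XHet). mod07570/L8 ovaries contributed 207 of their 3075 peaks, and mod07570/+ ovaries contributed 738 of their 4643. The study asked whether Modulo (Mod), a chromatin-associated protein found with Piwi, is needed for the H3K9me3 mark at transposons, and it profiled the mark by chromatin immunoprecipitation and sequencing (ChIP-seq) of DNA from pooled ovaries.

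mod07570/L8 females carry the P-element insertion allele mod07570 over modL8, a loss-of-function deletion, and mod07570/+ females carry the same mod07570 allele over a wild-type chromosome. Both genotypes thus share 1 mod07570 copy, and both alleles are carried by the whole animal, in the germline and in the soma. The alleles are recessive lethal, although the transheterozygous females survive and are fertile, and the age of the females is not given in the sources used here. The mod gene lies on chromosome arm 3R, so neither allele is carried by X. Each genotype had 1 ChIP library and 1 input library, so no value below has a replicate error, and no p-value is given. A difference between the lists compares these libraries.

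H3K9me3 is the trimethylated form of lysine 9 of histone H3. It is bound by heterochromatin protein HP1 and covers the repeats around centromeres, telomeres and many transposon insertions. In the ovary, Piwi and its small RNAs direct the mark to transposons while these are being transcribed. The X arm runs from the telomere at low coordinates to the pericentric heterochromatin at high coordinates, and its base is known for flamenco, a piRNA cluster of follicle cells whose transcripts give rise to piRNAs against gypsy-family elements. No gene or cluster was placed here, because the annotation at hand uses another build, so peaks are given by their position.

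The depth of the ChIP libraries differed. After removal of duplicates, 1138939 reads were kept of 3071728 in the mod07570/L8 ChIP, against 6187044 of 20741540 in the mod07570/+ ChIP, a ratio of 0.184. The inputs had 7407221 kept reads in mod07570/L8 and 16874502 in mod07570/+. The number of called peaks, their length and their fold over input depend on depth, and depth and genotype cannot be told apart in the lists as a whole. Sequences outside the 5 large arms, which are heterochromatic scaffolds, the fourth chromosome and unplaced contigs, held 67.1% of the covered bases in mod07570/L8 and 66.8% in mod07570/+, so most of the covered length in both lists lay where H3K9me3 is known to be dense.

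X had the most mod07570/+ peaks of the 5 arms, and the lowest ratio of peak numbers. That ratio, mod07570/L8 over mod07570/+, was 0.280 on X, near the 0.312 of 3R (91 against 292 peaks), whereas it was 0.631 on 2L, 0.879 on 2R and 0.781 on 3L. X accounted for 6.73% of all mod07570/L8 peaks and for 15.9% of all mod07570/+ peaks. The covered length separated the arms less. X peaks spanned 165628 bp in mod07570/L8 and 667541 bp in mod07570/+, a ratio of 0.248, and the ratio was 0.289 to 0.340 on the other 4 arms. By length, X made up 4.09% of the mod07570/L8 total and 5.16% of the mod07570/+ total. On XHet, where only the most proximal part of the chromosome is represented, there were 17 peaks in mod07570/L8 and 20 in mod07570/+, with a ratio of 0.434 in covered length.

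X peaks were shorter than those of the other 4 arms together, as were those of 3R. The median length was 504 bp in mod07570/L8 (quartiles 341 and 951.5 bp, longest 7035 bp) and 564 bp in mod07570/+ (quartiles 322 and 947.75 bp, longest 16400 bp). On the other 4 arms together the medians were 670 bp in mod07570/L8 and 709 bp in mod07570/+. Peaks over 5 kb numbered 2 on X in mod07570/L8 and 12 in mod07570/+, compared with 35 in mod07570/L8 and 168 in mod07570/+ on the other 4 arms. 3R was close to X, with medians of 536 bp in mod07570/L8 and 532.5 bp in mod07570/+, and it had no peak over 5 kb in mod07570/L8 and 2 in mod07570/+.

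X peaks also had lower folds than the other 4 arms together, again like those of 3R. Fold over input, the ratio of ChIP to the local input background given with each peak, had a median of 2.86 on X in mod07570/L8 (range 1.49 to 13.6) and of 2.08 in mod07570/+ (range 1.26 to 6.73). On the other 4 arms the medians were 4.27 in mod07570/L8 and 2.35 in mod07570/+. A fold above 4 was reached by 47 X peaks (22.7%) in mod07570/L8 and by 27 (3.66%) in mod07570/+, against 54.9% of peaks on the other arms in mod07570/L8 and 12.0% in mod07570/+. On 3R alone the median folds were 3.06 in mod07570/L8 and 2.10 in mod07570/+, and 16.5% of mod07570/L8 peaks and 3.08% of mod07570/+ peaks were above 4. At the low end, 17 X peaks (8.21%) in mod07570/L8 and 331 (44.9%) in mod07570/+ had a fold under 2.

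The low folds on X went with a high local background. The background behind each peak, recovered from its pileup and its fold, was compared with the genome-wide floor, the level expected from reads spread evenly over the genome. On X the median background was 3.10 times the floor in mod07570/L8 and 3.07 times in mod07570/+, whereas on the other 4 arms together it was 1.55 times in mod07570/L8 and 1.56 times in mod07570/+. The arms of chromosome 3 differed from each other, with medians on 3R of 2.76 in mod07570/L8 and 3.18 in mod07570/+, but on 3L of 1.35 in mod07570/L8 and 1.15 in mod07570/+. A background of at least 3 times the floor lay under 111 of 207 X peaks (53.6%) in mod07570/L8 and under 379 of 738 (51.4%) in mod07570/+. These 379 peaks had a median fold of 1.79, while the 159 mod07570/+ peaks on X with a background within 1.5 times the floor had 2.53. The same order held in mod07570/L8, with median folds of 2.39 for the 111 peaks and 4.24 for 28 peaks near the floor. Background is the denominator of fold, so part of this order is built into the measures. Among called peaks, the pileup itself, the height of the ChIP signal, was not lower on X. A peak over a higher background needs a higher pileup to be called, so part of this also follows from the calling. Median pileup per 1000000 kept reads was 18.6 on X and 15.7 on the other arms in mod07570/L8, and 13.0 on X and 9.55 on the other arms in mod07570/+. What raises the local input signal at these places was not tested.

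**Figure D1:**
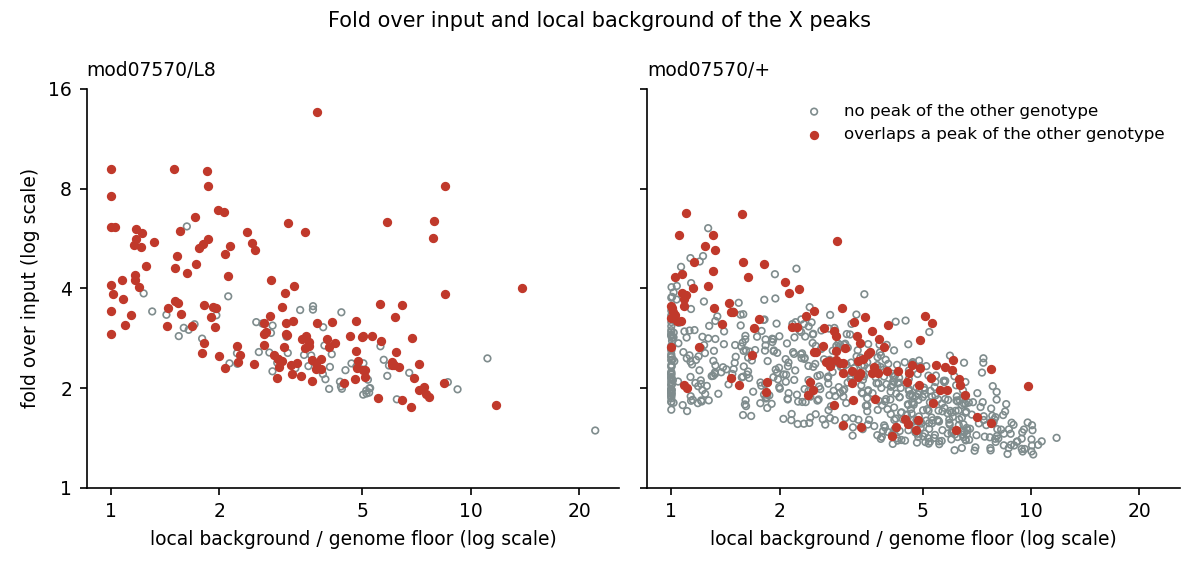
Fold over input (log axis) against local background in multiples of the genome-wide floor (log axis) for every X peak, mod07570/L8 left and mod07570/+ right. Filled points overlap a peak of the other genotype and open points do not, and the median background was 3.10 in mod07570/L8 and 3.07 in mod07570/+. The peak of highest fold had a background of 3.73 in mod07570/L8 and of 1.10 in mod07570/+.

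Along the arm, peaks were spread thinly over most of its length and were densest near the base. In mod07570/+, the 21 bins of 1 Mb between 0 and 21 Mb held 16 to 61 peaks each (median 28), and the bin from 21 to 22 Mb held 68. In mod07570/L8, those 21 bins held 1 to 20 peaks each (median 6), and the bin from 21 to 22 Mb held 51. That single bin contained 59556 bp of X peaks in mod07570/L8, 36.0% of the length on X, and 155931 bp in mod07570/+, 23.4% of the length. From 20 Mb on lay 69 of 207 X peaks in mod07570/L8 (33.3%, 95% Wilson interval 27.3 to 40.0%) and 127 of 738 in mod07570/+ (17.2%, 14.7 to 20.1%). Intervals here and below cover counting error only. By covered length these shares were 42.6% in mod07570/L8 and 29.2% in mod07570/+.

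**Figure D2:**
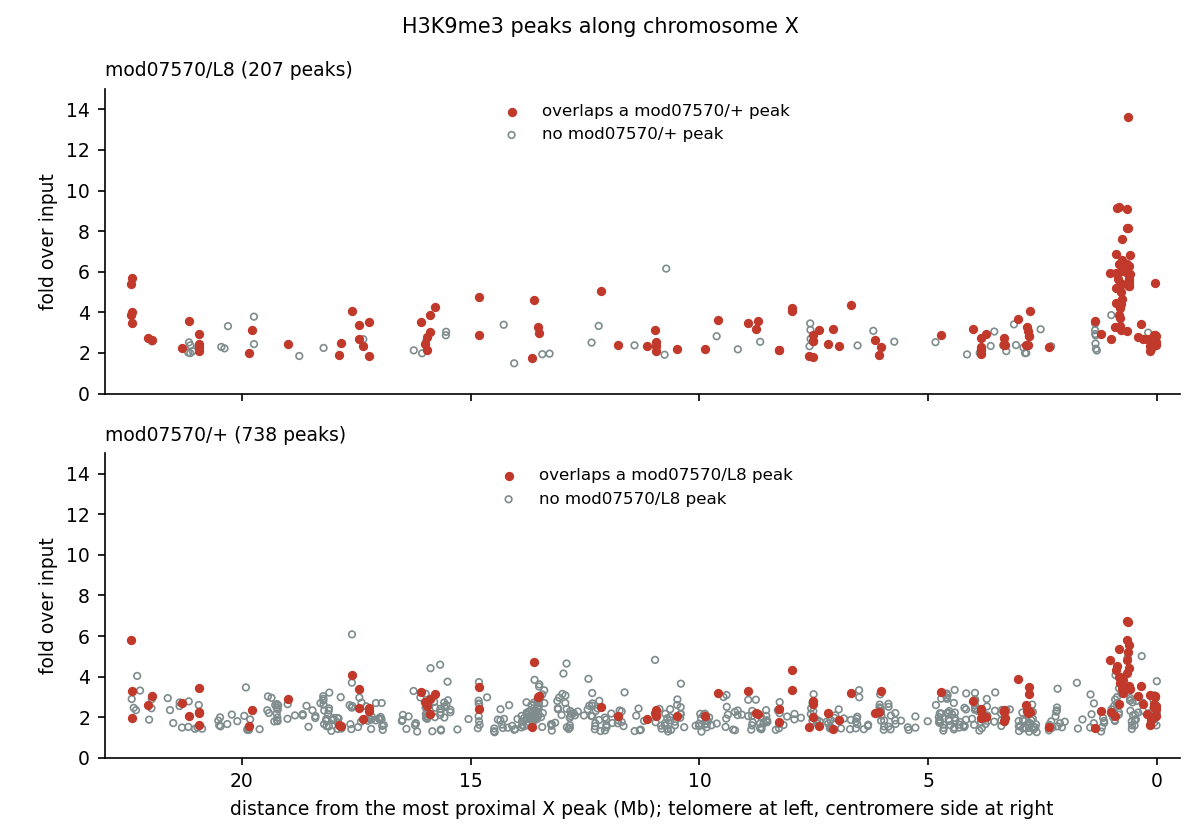
Fold over input (linear axis) of each X peak against its distance in Mb from the most proximal X peak. The telomere is at the left and the base at the right, with mod07570/L8 in the upper panel and mod07570/+ in the lower. Filled points overlap a peak of the other genotype. The highest folds, 13.6 in mod07570/L8 and 6.73 in mod07570/+, lie in the dense group near the base, between 21 and 22 Mb in chromosome coordinates.

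Of the 738 X peaks in mod07570/+, 126 shared 1 bp or more with a mod07570/L8 peak and are called overlapped, which is 17.1% (14.5 to 20.0%), and 612 were not. Over all sequences the share was 37.5%, and on the other 4 arms it was 29.1% (409 of 1406), so the share on X was lower than on the other 4 arms by a difference of -12.0 percentage points (95% Newcombe interval -15.5 to -8.32). The arms were not alike, with 26.2% on 2L, 34.6% on 2R, 36.5% on 3L and 14.7% on 3R (43 of 292), so X and 3R stood together at the low end, and the difference of X from 3R alone was 2.35 percentage points (-2.84 to 6.96). Read from the other list, 144 of the 207 X peaks in mod07570/L8 lay over a mod07570/+ peak (69.6%, 63.0 to 75.4%) and 63 did not, whereas 91.3% did over all sequences and 82.6% on the other 4 arms. On 3R that share was 47.3%.

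Most overlaps were substantial. A median of 73.9% of the length of the 126 overlapped mod07570/+ peaks was covered (quartiles 41.7 and 89.7%), and 89 of them were covered over at least 50% of their length. Of the 144 mod07570/L8 peaks, 87 lay wholly inside a mod07570/+ peak. Of the 126 overlapped mod07570/+ peaks, 14 held more than 1 mod07570/L8 peak, with at most 3. The bases shared by both lists came to 117432, which is 70.9% of the X length in mod07570/L8 and 17.6% of that in mod07570/+. Near misses were few, with 15 of the 612 mod07570/+ peaks that were not overlapped lying within 1 kb of a mod07570/L8 peak.

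The overlapped peaks were the longer and stronger ones. In mod07570/+, the overlapped X peaks had a median length of 803.5 bp and a median fold of 2.57, against 528.5 bp and 1.99 for those not overlapped. Their median -log10 q, the caller's measure of confidence, was 14.9 against 6.28. In mod07570/L8, the X peaks lying over a mod07570/+ peak had medians of 589.5 bp and a fold of 3.09, against 422 bp and 2.44 for the 63 others.

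When peaks were compared within strata of fold, the gap between X and the other arms lay in the class of the highest folds. Fold was divided into 3 equal classes over all mod07570/+ peaks of the 5 arms, at 1.94 and 2.63. In the lowest class 17 of 301 X peaks were overlapped (5.65%), beside 25 of 414 on the other arms (6.04%). In the middle class the values were 49 of 267 on X (18.4%) and 61 of 447 on the other arms (13.6%). In the highest class 60 of 170 X peaks were overlapped (35.3%, 28.5 to 42.7%), against 323 of 545 on the other arms (59.3%, 55.1 to 63.3%). On 3R the share in that class was 18 of 60 (30.0%), and on 2L, 2R and 3L together it was 305 of 485 (62.9%). The highest class has no upper limit. A fold above 4 was reached by 27 of its X peaks and by 169 of its peaks on the other 4 arms, so fold was not matched within it. By length, 32 of 57 X peaks of at least 2000 bp were overlapped (56.1%) against 238 of 298 on the other arms (79.9%). From 500 bp to under 2000 bp the shares were 52 of 346 on X (15.0%) and 19.7% on the other arms, and under 500 bp they were 42 of 335 on X (12.5%) and 10.7% on the other arms. Local background moved with the gap as well. The share on X minus that on the other 4 arms was -20.0 percentage points among peaks near the floor, and it was 2.21 points (-2.48 to 7.05) among those with at least 3 times the floor.

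**Figure D3:**
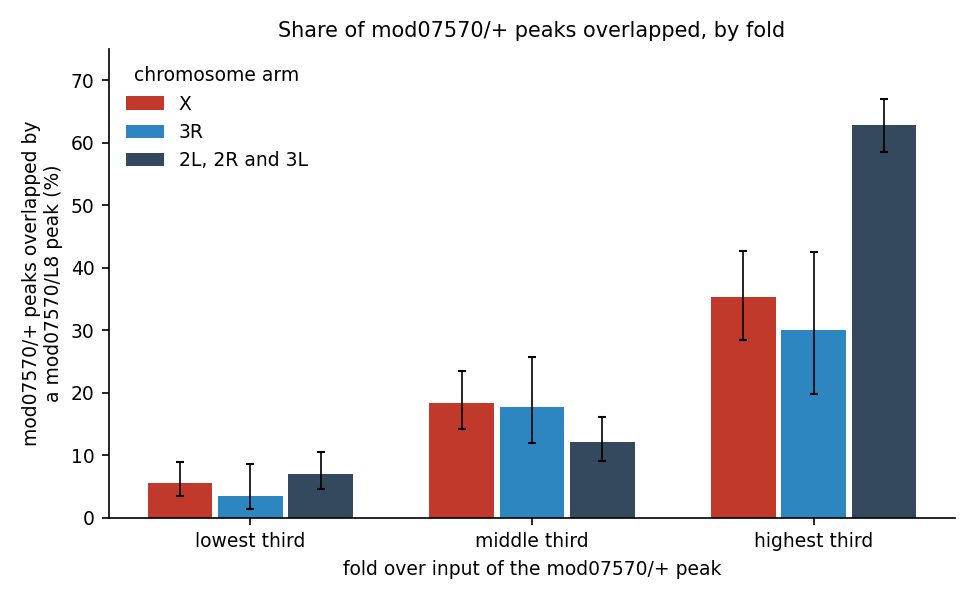
Percentage of mod07570/+ peaks overlapped by a mod07570/L8 peak in 3 classes of fold over input, for X, for 3R, and for 2L, 2R and 3L together, with 95% Wilson intervals as bars. In the highest class X (35.3%) and 3R (30.0%) lie below the other 3 arms (62.9%), and in the lowest class all 3 values are low.

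Since the mod07570/L8 library had fewer reads, the mod07570/+ peaks were projected to its depth. Each pileup and background was scaled by the ratio of kept reads and the Poisson p recomputed, and the lowest -log10 p of any mod07570/L8 peak on X, 2.68, served as the limit. This calculation was added after the data had been seen. At that depth 306 of 738 X peaks (41.5%) would still reach the limit, 98 of the 126 overlapped ones (77.8%) and 208 of the 612 others (34.0%). Among the 306, then, 32.0% (27.0 to 37.4%) had a mod07570/L8 peak over them. The other 432 X peaks fell below the limit, and 28 of them were overlapped all the same. For those below it that were not overlapped, absence from the mod07570/L8 list was not measurable at this depth. On the listed peaks, the formula gave a median of 0.957 times the deposited -log10 p (0.850 to 1.00 from the 5th to the 95th percentile).

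The peaks from 20 Mb on were overlapped more often than those of the rest of the arm, but not in every bin. From 20 Mb on, 45 of 127 mod07570/+ peaks were overlapped (35.4%, 27.7 to 44.1%), against 81 of 611 under 20 Mb (13.3%, 10.8 to 16.2%), a difference of 22.2 percentage points (13.9 to 31.2). From 20 to 21 Mb, only 1 of 22 mod07570/+ peaks was overlapped (4.55%). Of the 28 overlapped from 21 to 22 Mb, 24 lay in the block from 21497037 to 21847164 described below. In mod07570/L8, 58 of 69 peaks from 20 Mb on (84.1%) and 86 of 138 under 20 Mb (62.3%) lay over a mod07570/+ peak. From 21 to 22 Mb 42 of 51 mod07570/L8 peaks did so, and 38 of these 42 lay in the block. Fold and background moved along with position. The median fold from 20 Mb on was 3.86 in mod07570/L8 and 2.32 in mod07570/+, and under 20 Mb it was 2.55 in mod07570/L8 and 2.04 in mod07570/+. The median background was 2.06 times the floor from 20 Mb on in mod07570/L8 and 1.81 times in mod07570/+, and under 20 Mb it was 3.61 times in mod07570/L8 and 3.37 times in mod07570/+. Their part in the difference in overlap was not tested.

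Overlap differed among the bins with most peaks. From 21 to 22 Mb, 28 of 68 mod07570/+ peaks were overlapped (41.2%). From 8 to 9 Mb, the next most populated bin, 4 of 61 were overlapped (6.56%), and from 4 to 5 Mb 5 of 44 were (11.4%). The next bins by number, from 18 to 19, 6 to 7 and 19 to 20 Mb, had 43, 42 and 41 peaks with 11.6%, 14.3% and 29.3% overlapped. The highest share of any bin was from 22 to 23 Mb, with 16 of 37 peaks (43.2%). From 9 to 10 Mb none of the 32 mod07570/+ peaks was overlapped, and mod07570/L8 had 1 peak there. The 3 densest bins of mod07570/L8 all lay beyond 19 Mb, with 51 peaks from 21 to 22 Mb, 20 from 19 to 20 Mb and 16 from 22 to 23 Mb.

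**Figure D4:**
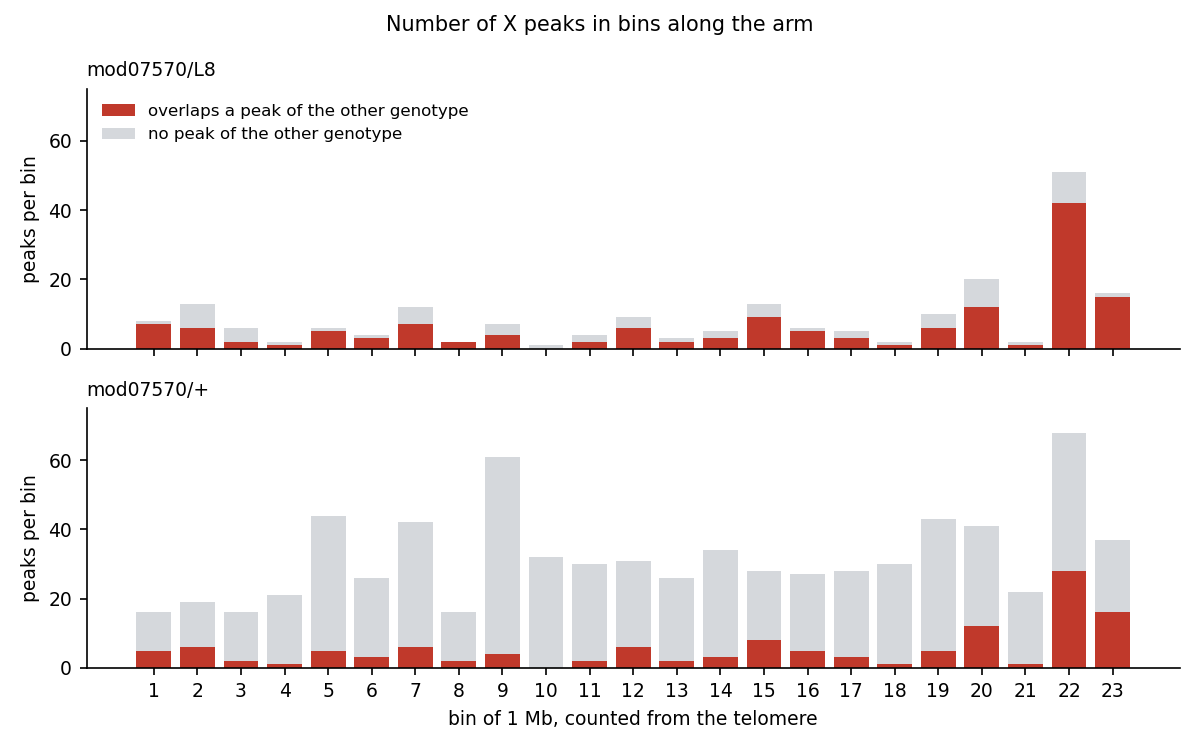
Number of X peaks in each 1 Mb bin of the arm, telomere left and base right, mod07570/L8 in the upper panel and mod07570/+ in the lower, with the dark part of each bar counting peaks that overlap a peak of the other genotype. The bin from 21 to 22 Mb is the highest in both, with 51 peaks in mod07570/L8 and 68 in mod07570/+.

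Inside the proximal megabases, the mark was concentrated in a block of 350128 bp, from 21497037 to 21847164. Its limits were set after the values had been seen. They enclose 3 of the 5 runs longer than 50 kb in which successive mod07570/+ peaks lie at most 10 kb apart. The block was thus drawn around dense mod07570/+ peaks, so its share of these peaks and overlap with them partly follow from that choice. The block held 38 mod07570/L8 peaks, all of them over a mod07570/+ peak, and 40 mod07570/+ peaks, of which 24 were overlapped (60.0%, 44.6 to 73.7%). It contributed 31.1% of the X length in mod07570/L8 from 18.4% of the peaks, and 21.6% in mod07570/+, 144088 bp, from 5.42% of the peaks. The median peak length was 917.5 bp in mod07570/L8 and 2185 bp in mod07570/+, and the median fold was 5.77 (3.07 to 13.6) in mod07570/L8 and 3.51 (1.81 to 6.73) in mod07570/+. All 10 of the highest folds on X in mod07570/L8 and 7 of the 10 highest in mod07570/+ lay in it. So did 8 of the 10 longest mod07570/+ peaks. The ratio of peak numbers was 0.95 in the block and 0.242 on the rest of X, while the ratio of covered length was 0.358 and 0.218. Similar numbers of peaks were thus called in both genotypes. The mod07570/L8 peaks were shorter, some lay together over 1 mod07570/+ peak, and 16 of the 40 mod07570/+ peaks had none over them.

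The local background in the block was close to the floor, with medians of 1.51 times in mod07570/L8 and 1.08 times in mod07570/+, and 33 of its 40 mod07570/+ peaks lay within 1.5 times. Outside the block the medians were 3.54 in mod07570/L8 and 3.30 in mod07570/+. There, 106 of 169 mod07570/L8 peaks lay over a mod07570/+ peak (62.7%) and 102 of 698 mod07570/+ peaks were overlapped (14.6%, 12.2 to 17.4%). After projection to the mod07570/L8 depth, 27 of the 40 mod07570/+ peaks in the block would reach the limit and 22 of these were overlapped (81.5%, 63.3 to 91.8%). Outside it, 279 of 698 would reach the limit and 76 of these were overlapped (27.2%, 22.4 to 32.7%).

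The first run of the block, from 21497037 to 21551705, had 6 mod07570/L8 peaks covering 6971 bp and 9 mod07570/+ peaks covering 24373 bp. The second, from 21581334 to 21683379, had 18 peaks in mod07570/L8 and 15 in mod07570/+, which covered 21.0% of its 102046 bp in mod07570/L8 and 70.7% in mod07570/+. This run contained the 4 longest X peaks of mod07570/+. The longest, from 21601897 to 21618296, was 16400 bp with a fold of 4.00, and 45.0% of it was covered by mod07570/L8 peaks, one of which was the second longest of that genotype (21603916 to 21610285, 6370 bp, fold 5.47). The next, from 21630131 to 21641933 (11803 bp, fold 3.87), was covered over 27.4%. Of the peak from 21647894 to 21658296 (10403 bp, fold 3.40) only 7.65% was covered, although the mod07570/L8 peak of 363 bp in it, from 21650136, reached a fold of 7.61. The peak from 21659454 to 21668862 (9409 bp, fold 3.60) was covered over 28.3%. Each of these 4 long peaks was thus covered only in part.

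The third run of the block, from 21759864 to 21847164, had the highest median folds of the block's runs. They were 6.11 over 14 mod07570/L8 peaks and 4.30 over 16 mod07570/+ peaks. The peaks covered 23105 bp in mod07570/L8 and 47518 bp in mod07570/+, and 11 of the 16 mod07570/+ peaks were overlapped. The strongest ones had similar starts in both genotypes, while others were much shorter in mod07570/L8. An example is the mod07570/+ peak from 21826174 to 21833614 (7441 bp, fold 3.39), whose highest mod07570/L8 peak, from 21826271 to 21827782, was 1512 bp with a fold of 6.81. The highest fold in mod07570/L8, 13.6, belonged to a peak from 21793326 to 21794330, and the mod07570/+ peak under it, from 21793334 to 21795002, had 6.69. The highest in mod07570/+, 6.73, was the peak from 21765587 to 21767647, where the mod07570/L8 peak from 21765702 to 21767637 had 8.13. The next highest mod07570/L8 folds after 13.6 lay outside this run. They were 9.18 from 21600035 to 21600334 in the second run and 9.16 from 21541076 to 21542287 in the first. From 21798605 to 21805639 lay the longest X peak of mod07570/L8 (7035 bp, fold 8.16), which covered 91.4% of a mod07570/+ peak of 7676 bp (fold 5.57). The mod07570/L8 peak from 21759772 to 21763650 (3879 bp) had a fold of 9.08, and the mod07570/+ peak from 21759864 to 21764344 (4481 bp) had 5.81. One strong mod07570/+ peak between them, from 21784440 to 21786531 (2092 bp, fold 4.94), had no mod07570/L8 peak over it.

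The remaining 2 runs over 50 kb differed from the block. The run from 22339889 to 22397620 had 6 mod07570/L8 peaks covering 4442 bp and 17 mod07570/+ peaks covering 11463 bp, 7 of which were overlapped, with median folds of 2.86 in mod07570/L8 and 2.43 in mod07570/+. The run from 8868033 to 8924638, in the middle of the arm, had 2 mod07570/L8 peaks covering 1632 bp and 13 mod07570/+ peaks covering 14679 bp, 2 of which were overlapped. The 738 mod07570/+ peaks fell into 350 runs in all, and 202 peaks were a run of their own.

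At the other end of the arm, next to the telomere, the mark was found in both genotypes. The most distal peak ran from 1493 to 1801 in mod07570/L8, with a fold of 5.38, and from 1482 to 1805 in mod07570/+, with a fold of 5.82, and 95.4% of the mod07570/+ peak was covered. A mod07570/+ peak from 6166 to 12726 (6561 bp, fold 3.28) corresponded to 3 mod07570/L8 peaks, from 6201 to 8601 with a fold of 3.85, from 9477 to 10066 with 5.67, and from 11821 to 12537 with 4.01. The most proximal peaks were a mod07570/L8 peak from 22411880 to 22412580 (701 bp, fold 2.55) and a mod07570/+ peak from 22420292 to 22422528 (2237 bp, fold 3.77), which had no mod07570/L8 peak over it.

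The 8 strongest mod07570/+ peaks on X without a mod07570/L8 peak had folds between 4.15 and 6.08, and 6 of them lay under 20 Mb. The highest, from 4828131 to 4829085 (955 bp, fold 6.08), was the third highest of all mod07570/+ peaks on X. It was followed by peaks from 22090542 to 22090931 (fold 5.01), from 21784440 (above), from 11452511 to 11454859 (4.82), from 9517248 to 9518939 (4.65), from 6755323 to 6755983 (4.59), from 6545539 to 6545919 (4.42) and from 9450737 to 9451766 (4.15). The one from 6545539 had a mod07570/L8 peak within 1 kb, and the other 7 had none. All 8 would reach the limit at the mod07570/L8 depth, with projected -log10 p of 4.74 to 9.37 against 2.68, so the projection to that depth did not place them below it. One long peak outside the proximal region, from 6644819 to 6653547 (8729 bp, fold 3.13), was covered over 12.7%.

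Conversely, 63 mod07570/L8 peaks on X lay where mod07570/+ had none. The strongest ran from 11697391 to 11698316 (926 bp) with a fold of 6.15. The next were from 21426165 to 21426428 (fold 3.86), from 2684708 to 2685272 (3.79), from 21081938 to 21082872 (3.54) and from 14844331 to 14844719 (3.45). As a group these 63 peaks were weak, with the median fold of 2.44 given above, a median -log10 q of 2.84 against 4.45 for the 144 others, and a background of 3.88 times the floor against 2.96. Only 4 of them lay within 1 kb of a mod07570/+ peak.

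Where both genotypes had a peak, fold over input was somewhat higher in mod07570/L8. Each of the 126 overlapped mod07570/+ peaks was paired with the highest mod07570/L8 peak over it, and the median fold was 2.90 in mod07570/L8 and 2.57 in mod07570/+. The median ratio within pairs was 1.19, a log2 ratio of 0.26 (quartiles 0.01 and 0.51, range -0.65 to 1.25), with mod07570/L8 higher in 96 pairs and lower in 30. In 26 pairs (20.6%) the fold was more than 1.5 times higher in mod07570/L8, against 43.4% of pairs over all sequences and 42.1% on the other 4 arms, where the median log2 ratio was 0.52. The direction was the same over most of the list, and X pairs moved less. The highest of several mod07570/L8 peaks was taken and the libraries differed in depth, so a ratio above 1 is no measure of more H3K9me3 at a place.

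The pairs near the base had the larger ratios. From 20 Mb on, the median log2 ratio was 0.45 over 45 pairs, 39 of them higher in mod07570/L8, and under 20 Mb it was 0.18 over 81 pairs, 57 of them higher. Most mod07570/+ peaks with more than 1 mod07570/L8 peak lay from 20 Mb on, so taking the highest bears more on those pairs. Other pairings were not compared between these parts of the arm. The highest ratio, 2.38, belonged to the mod07570/+ peak from 21077079 to 21077577, with folds of 3.55 in mod07570/L8 and 1.49 in mod07570/+. Next came the long peak from 21647894 described above with a ratio of 2.24, a peak from 15344763 to 15345536 (3.20 in mod07570/L8 and 1.43 in mod07570/+, ratio 2.23) and the peak from 21793334 with 2.04. The lowest, 0.638, belonged to the mod07570/+ peak from 21775849 to 21777411, with folds of 3.07 in mod07570/L8 and 4.81 in mod07570/+, inside the third run of the block. It was followed by peaks from 16398073 to 16398475 (2.31 in mod07570/L8 and 3.29 in mod07570/+, ratio 0.700), from 22276587 to 22276975 (2.34 in mod07570/L8 and 3.10 in mod07570/+, ratio 0.755) and from 5206592 to 5209107 (1.84 in mod07570/L8 and 2.32 in mod07570/+, ratio 0.791).

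**Figure D5:**
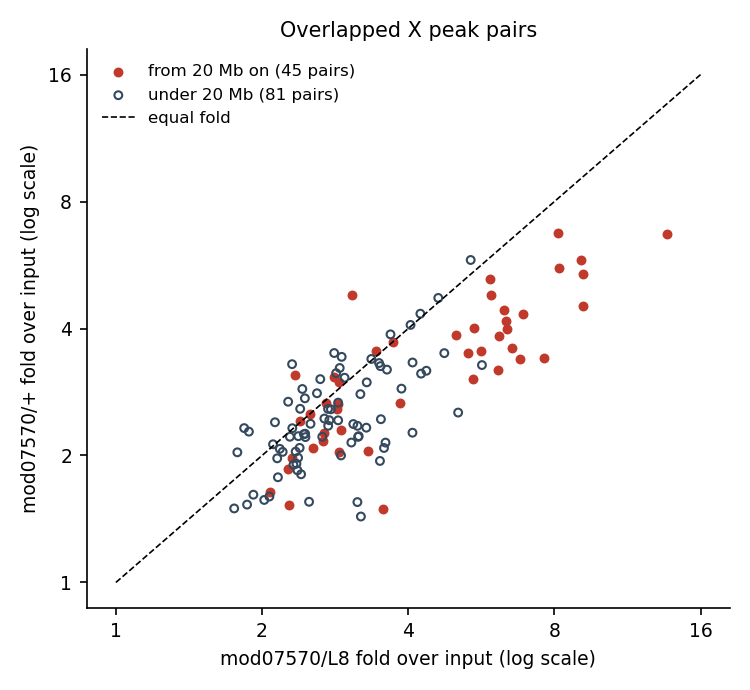
Fold over input in mod07570/L8 (horizontal) and mod07570/+ (vertical) for the 126 overlapped X peaks on log axes, with the line of equal values. Filled points are the 45 pairs from 20 Mb on, and open points are the 81 pairs under 20 Mb. Most points, 96 of 126, lie below the line, on the side of higher fold in mod07570/L8, with a median ratio of 1.19.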

How the data were processed

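The series holds 31 samples, and this report uses 4 ovary libraries, a ChIP with an H3K9me3 antibody and an input from each of 2 genotypes. The authors aligned reads to build dm3 using Bowtie and discarded those with several hits. Broad regions were then called by MACS2 (version 2.2.7.1) for each ChIP against its own input, with 1 read retained per position and the larger library scaled to the smaller. For each peak the deposited table gives the length, the pileup signal (ChIP coverage from the authors' MACS2 run), the fold ratio of ChIP over local background, and the -log10 p and -log10 q, whose 2 headers were lost and were assigned from the order of MACS2 columns. The 21 RNA tables were not used here.

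Peaks on X were taken in Python 3.11.15 (pandas 2.3.3, numpy 2.4.6, scipy 1.17.1), overlaps of at least 1 bp were counted, and shares were given with 95% Wilson intervals, with Newcombe intervals for differences. Local background was (pileup + 1)/fold - 1, and the floor was the kept ChIP reads times the fragment length (255 bp in mod07570/L8, 259 bp in mod07570/+) over the genome size, 2.08 and 11.5 pileup. Overlap counting was tested on simulated peaks. With 1 library a genotype no test was made.

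The X peaks named include the end peaks of each list and the 4 highest and 4 lowest pair ratios. They also include the 8 strongest mod07570/+ peaks and the 5 strongest mod07570/L8 peaks without a partner. Others were drawn from the 8 highest by fold and the 5 longest of each list, not all of which are named. Other peaks named, at the telomere and in the runs, were chosen after their values were seen. The members and these rules were chosen with earlier results of these data known. Alternatives covered stricter lists, other overlap rules, other proximal limits and other pairings. Sequence content of the peaks was not analysed here.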

Additional observations from a re-analysis of the deposited data

How the results depend on the processing

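Of 43 alternative values, 22 stayed close to the main value, meaning within its interval for shares and differences, and within 1.5 times for ratios, which have no interval. The covered-length ratio on X (0.175 to 0.351) and the higher overlap from 20 Mb on (14.9 to 29.0 percentage points) did so under every alternative run. The median pair log2 ratio, 0.26, was 0.25 under other pairings and 0.59 by pileup per 1000000 kept reads, above 0 in each. With -log10 q of at least 5, the ratio of X peak numbers was 0.149, the overlapped share of mod07570/+ peaks 9.17%, the overlapping share of mod07570/L8 peaks 82.9% and the mod07570/L8 share from 20 Mb on 58.6%. With a fold of at least 2 the ratio was 0.467, the overlapped share 25.1%, the overlapping share 62.6% and the mod07570/+ share from 20 Mb on 21.1%. The overlapped share was 12.1% when 50% of a peak had to be covered, 38.2% for the 207 mod07570/+ peaks of highest -log10 p, and 32.0% after projection. From 19 Mb on lay 43.0% of mod07570/L8 and 22.8% of mod07570/+ peaks, and from 21 Mb on 14.2% of mod07570/+ peaks. The lower overlap on X than on the other 4 arms, -12.0 percentage points (-15.5 to -8.32), was -0.39 in the lowest fold class, 4.71 in the middle one (reversed, -0.74 to 10.5) and -24.0 in the highest. It was -20.0 near the floor, 2.21 at 3 times the floor or more (reversed), 2.35 against 3R alone (reversed, -2.84 to 6.96) and -15.8 against 2L, 2R and 3L. The intervals of these 3 reversed values include 0, and the cause was not tested. The projection and the classes by background and by arm were chosen after seeing the data. No paired analysis was possible because each genotype has 1 peak list with no replicate number, so no library could be left out. Depth limits these results, since 432 of the 738 mod07570/+ peaks on X would not reach the lowest -log10 p of the mod07570/L8 list.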

Other observations

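The telomere-associated sequence of X (X-TAS), a repeat array next to the X telomere that is a source of piRNAs in the germline, is a separate sequence in the lists and was not counted as X. It carried 1 peak in each genotype. The mod07570/L8 peak ran from 1308 to 1779 (472 bp) with a fold over input of 4.62, and the mod07570/+ peak ran from 1 to 1951 (1951 bp) with a fold of 3.45. The mod07570/L8 peak covered 24.2% of the mod07570/+ peak.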
